A study of Homo sapiens with 6 samples.

Results

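The RAB small GTPases were followed in RD cells after knockdown of TAK1. Members were the rows of the count table whose symbol is RAB followed by digits and at most 1 letter. Of 58735 rows, 64 carry such a symbol. RAB1C is annotated as a processed pseudogene and had 0 counts in all 6 samples, which leaves 63 protein-coding members. The filter on low counts passed 52 of them, and 11 were not tested. Members were chosen by symbol, but the family was put forward with the fold changes of this same comparison in view, so its counts are given as a description.

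RAB proteins are molecular switches of membrane traffic. Bound to GTP they sit on a membrane and recruit effectors such as motors and tethers. Bound to GDP they are drawn off the membrane by GDP dissociation inhibitors. Exchange factors, many with a DENN domain, load GTP, and proteins with a TBC domain speed up its hydrolysis. A lipid anchor added by RAB geranylgeranyl transferase holds the GTPase on its membrane. Each RAB marks a limited set of compartments, so the family covers the route from the endoplasmic reticulum through the Golgi to the surface and the route back through endosomes to lysosomes. In muscle cells RAB traffic serves membrane repair, fusion of myoblasts and insulin-driven delivery of a glucose transporter.

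RD is an established line of embryonal rhabdomyosarcoma (ERMS), a tumour of the skeletal muscle lineage. All 6 samples were RD cells transduced with lentiviral particles, 3 with scrambled shRNA and 3 with TAK1 shRNA. Poly(A) RNA was sequenced in bulk, so fewer cells of a kind and less RNA per cell cannot be told apart. All samples come from 1 cell line and 1 TAK1 shRNA was used, so the loss of TAK1 and any other effect of that construct cannot be told apart. The labels do not say that replicates were separate cultures, so the p-values measure the spread between these samples.

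The libraries held 28839898 to 34469323 counts. RAB genes took 65602 to 77905 counts of each, summed over the 63 members. A count of 3, the floor used here, was worth 0.0849 to 0.106 CPM. CPM is the count scaled to a library of fixed size, with library sizes adjusted by TMM. On a principal component analysis the groups lay apart along the first axis, with 45.5% of the variance. The myogenic markers MYOD1, MYOG and DES were detected in every sample, while MYF5 had 0 counts in all. Summed CPM of the 6 myogenic markers was 1656 to 1681 in scrambled and 1551 to 1616 in TAK1 shRNA samples. Of these, MYOD1, MYOG and MYMK were called higher. CHRNA1 was called lower and was the only tested marker with a negative log2 fold change (-0.40). Of 9 markers of other cell types, 6 stayed under 1 CPM in all samples, PTPRC, PECAM1 and EPCAM among them, and CDH5 had 0 counts. The summed CPM of those 9 was 521.2 to 563 against 510 to 596, mostly COL1A1, and KRT18 was called lower. The part of these shifts in the RAB values was not tested.

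The targeted gene was examined first. MAP3K7, which encodes TAK1, a kinase that relays cytokine and stress signals, lies on chromosome 6 (90513573 to 90587086, GRCh38). It read 77.9, 76.5 and 77.6 CPM in the scrambled samples and 30.5, 33.6 and 29.9 CPM in the TAK1 shRNA samples. Every TAK1 shRNA sample was lower than every scrambled sample, in the direction of the labels. The log2 fold change was -1.30 (SE 0.062, n = 3 per group) with an adjusted p of 4.45e-14 by edgeR's quasi-likelihood test. An exact two-sided permutation test of the CPM values gave p = 0.1, the smallest that 3 against 3 samples allow.

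With TAK1 shRNA a minority of RAB genes changed, in both directions and at about the share of all tested genes. A gene was called when its Benjamini-Hochberg adjusted p over all 15935 tested genes was under 0.05 and its log2 fold change was at least 0.25 in size. By this rule 6 RAB genes were higher and 6 were lower with TAK1 shRNA, and 40 were not called. RAB36, RAB40B, RAB26, RAB6B, RAB3D and RAB42 rose. RAB27A, RAB21, RAB3B, RAB7A, RAB39A and RAB22A fell. The same rule called 23.1% of all tested genes, 11.8% higher and 11.3% lower, and the 12 calls among 52 RAB genes come to 23.1%. By the adjusted p alone 7 RAB genes were higher and 11 lower, against 33.3% of all tested genes (16.1% higher and 17.2% lower). The 6 genes that passed it without reaching the fold threshold were RAB8A, RAB5B, RAB13, RAB5C, RAB12 and RAB15. The median log2 fold change was -0.05 over the tested RAB genes and 0.02 over all tested genes. CPM of both groups did not overlap for 24 RAB genes, 8 above and 16 below, against 43.9% of all tested genes.

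**Figure D1:**
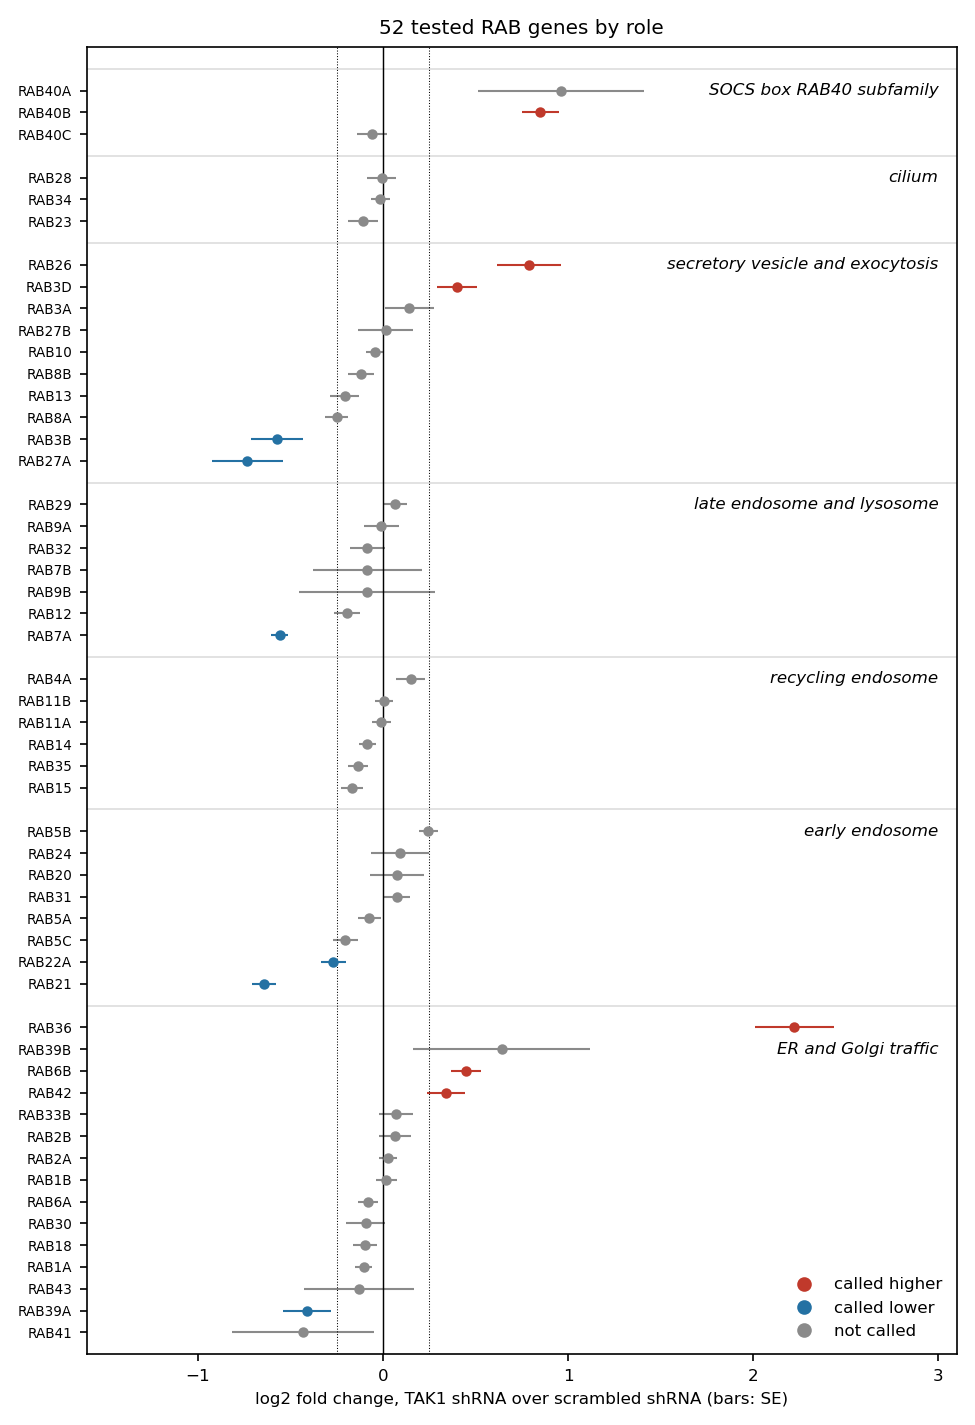
Log2 fold change of the 52 tested RAB genes, TAK1 shRNA over scrambled shRNA (x axis), by gene (y axis) and role, with the SE from edgeR as bars and the fold threshold of 0.25 as dotted lines. Of the 12 called genes (6 red, 6 blue), RAB36 stands farthest from 0 at 2.22. The groups for recycling endosome and cilium, of 6 and 3 genes, hold no called gene, where 23.1% of all tested genes were called.

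Transcript GC content moved with the direction of the calls. The canonical transcripts of the 6 RAB genes called higher had 50.8 to 62.7% GC and those of the 6 called lower had 37.1 to 46.7%. Over all tested genes with a GC value, sorted into 4 equal bins by GC, the share called higher was 6.70% in the lowest and 20.3% in the highest bin. The share called lower was 19.0% and 6.84%. The part of GC content in the RAB values was not tested. A fit with offsets by GC bin, added after seeing the data, called 11 of the 12 genes again in the same direction, and left RAB22A under the fold threshold (log2 fold change -0.21, adjusted p = 0.00718). It also called RAB5B higher and RAB8A lower. The median log2 fold change in that fit was -0.0044 over the tested RAB genes and 0.011 over all genes it tested. RAB40C (-0.21, adjusted p = 0.0107) and RAB11B (-0.11, adjusted p = 0.0408) passed the adjusted p in that fit without reaching the fold threshold.

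RAB GTPases of the endoplasmic reticulum and Golgi came first by number. Of 15 tested members, 3 were called higher and 1 lower, against 11.8% and 11.3% of all tested genes. RAB36, a Golgi-associated RAB that binds RILP family proteins and lies on chromosome 22 (23145366 to 23165663), had the largest change of the family. Its level was 0.985, 0.730 and 1.14 CPM in the scrambled samples and 4.21, 4.50 and 4.60 CPM in the TAK1 shRNA samples. The groups were far apart, and the lowest TAK1 shRNA sample held 123 counts against 35 in the highest scrambled sample. This was a log2 fold change of 2.22 (SE 0.214, adjusted p = 1.11e-08), or 4.67-fold. Leaving out any of the 6 samples kept the call.

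RAB6B, the brain-enriched paralog of the Golgi GTPase RAB6A, lies on chromosome 3 (133824235 to 133895882). It read 17.9, 18.7 and 15.99 CPM in scrambled and 24.0, 23.5 and 24.1 CPM in TAK1 shRNA samples. The groups did not overlap, and the log2 fold change was 0.45 (SE 0.0808, adjusted p = 0.000108). RAB6A, which acts in retrograde traffic to the Golgi and to the endoplasmic reticulum, was not called, with 97.5 ± 2.02 CPM (SD, n = 3) in scrambled and 92.1 ± 4.95 CPM in TAK1 shRNA samples. Its log2 fold change was -0.08 (adjusted p = 0.255). Exons of RAB6B overlap those of SRPRB on the other strand, and the sources used here do not say whether reads were counted by strand.

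RAB42, a little-studied member on chromosome 1 (28592200 to 28595449), read 10.6, 10.1 and 9.47 CPM in scrambled and 14.1, 11.4 and 12.8 CPM in TAK1 shRNA samples. The groups did not overlap, but the gap between them was narrow. The log2 fold change was 0.34 (SE 0.105, adjusted p = 0.0135). The call was lost without scrambled replicate 3 (log2 fold change 0.30, adjusted p = 0.0719) or without TAK1 shRNA replicate 1 (0.27, adjusted p = 0.0722). RAB39A, which binds the HOPS tethering complex and lies on chromosome 11 (107928448 to 107963482), was the member listed under this role that fell. Each member was placed in a single role, so the counts by role depend on that placing. It read 6.61, 6.99 and 6.75 CPM in scrambled and 4.55, 5.46 and 5.27 CPM in TAK1 shRNA samples, again without overlap. The log2 fold change was -0.41 (SE 0.131, adjusted p = 0.0177), and the call was lost without scrambled replicate 2 (-0.39, adjusted p = 0.0680) or TAK1 shRNA replicate 1 (-0.34, adjusted p = 0.0742). Its paralog RAB39B was near the floor, at 0.176 to 0.487 CPM in scrambled and 0.424 to 0.650 CPM in TAK1 shRNA samples, and was not called (log2 fold change 0.64, SE 0.479, adjusted p = 0.335).

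The housekeeping members of the early secretory pathway were not called. RAB1A, needed for traffic from the endoplasmic reticulum to the Golgi, read 199, 198 and 199 CPM in scrambled and 179, 182 and 193 CPM in TAK1 shRNA samples. Its groups did not overlap, but the log2 fold change of -0.10 (SE 0.046, adjusted p = 0.0920) missed the threshold. RAB1B had a log2 fold change of 0.02, RAB2A of 0.03 and RAB18, a GTPase of lipid droplets and the endoplasmic reticulum, of -0.10, each with an adjusted p over 0.05.

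RAB GTPases of the early endosome had 2 of 8 tested members called lower and none called higher, against 11.3% and 11.8% of all tested genes. RAB21, which carries integrins through early endosomes, lies on chromosome 12 (71754863 to 71800286). It read 46.2, 47.1 and 47.1 CPM in scrambled samples and 28.7, 29.8 and 31.3 CPM in TAK1 shRNA samples. The values within each group lay close together and the groups were well apart. The log2 fold change was -0.64 (SE 0.0645, adjusted p = 2.21e-08), and the level fell by 36.0%. RAB22A, which sorts cargo between early and recycling endosomes and lies on chromosome 20 (58309715 to 58367507), read 51.4, 52.01 and 55.7 CPM in scrambled and 43.5, 40.3 and 48.4 CPM in TAK1 shRNA samples. The groups did not overlap, and the log2 fold change of -0.27 (SE 0.0678, adjusted p = 0.00328) was the one nearest the fold threshold among the called genes. It fell short of that threshold without scrambled replicate 3 (-0.23), without TAK1 shRNA replicate 2 (-0.21) and with scaling by library size alone (-0.22).

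The RAB5 paralogs, which drive fusion of early endosomes, were not called. RAB5B read 97.6 to 102 CPM in scrambled and 113 to 124 CPM in TAK1 shRNA samples, a log2 fold change of 0.246 (adjusted p = 0.000449) that lay just outside the fold threshold and inside it without scrambled replicate 2 or TAK1 shRNA replicate 3. RAB5C read 37.7 to 40.7 CPM in scrambled and 32.8 to 36.5 CPM in TAK1 shRNA samples (log2 fold change -0.20, adjusted p = 0.0221), and was called lower without TAK1 shRNA replicate 1 (-0.25). RAB5A had a log2 fold change of -0.07 (adjusted p = 0.405). Between these genes, levels are compared per kilobase of the canonical transcript. On that scale RAB5B made up 32.1% ± 0.486 (SD, n = 3) of the RAB5 sum in scrambled and 38.3% ± 0.758 in TAK1 shRNA samples. RAB5C went from 40.7% ± 0.794 to 35.7% ± 0.942 and RAB5A from 27.2% to 26.0%. The shares of RAB5B and RAB5C did not overlap between groups and those of RAB5A did. Which of them is largest depends on the length used. By all exons RAB5B was the largest in both groups, at 37.98% ± 0.511 in scrambled and 44.53% ± 0.815 in TAK1 shRNA samples. RAB5C then held 35.45% ± 0.752 and 30.47% ± 0.836. RAB5C shares 41.4% of its 75-base stretches with another annotated gene, so its count is uncertain.

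RAB GTPases of the recycling endosome held no called member among 6 tested, where 23.1% of all tested genes were called. RAB11B, the recycling GTPase with the highest level per length of the whole family, stood at 88.5 ± 4.85 CPM per kb (SD, n = 3) in scrambled and 88.9 ± 2.19 CPM per kb in TAK1 shRNA samples. Its log2 fold change was 0.01 with a 95% interval from -0.10 to 0.11. RAB11A had a log2 fold change of -0.01 and RAB14, of the trans-Golgi and endosomes, of -0.09 (adjusted p = 0.168). RAB15, known from recycling of the transferrin receptor, read 53.5, 54.0 and 54.3 CPM against 47.5, 48.6 and 48.1 CPM, and passed the adjusted p (0.0282) at a log2 fold change of -0.17, under the fold threshold.

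RAB GTPases of late endosomes and lysosomes had 1 of 7 tested members called, against 23.1% of all tested genes. The called member was the most abundant one. RAB7A, which governs maturation and lysosomal fusion of late endosomes and autophagosomes, lies on chromosome 3 (128693669 to 128825942). It read 176, 174 and 170 CPM in scrambled samples and 118, 116 and 119 CPM in TAK1 shRNA samples. The values differed little within a group, and every TAK1 shRNA sample lay far below every scrambled sample. The log2 fold change was -0.56 (SE 0.0463, adjusted p = 8.35e-10), and the level fell by 32.04%. RAB7B, a distinct GTPase of the endosome to Golgi route, was low in both groups at 1.06 to 1.97 CPM in scrambled and 1.27 to 1.37 CPM in TAK1 shRNA samples, and was not called (log2 fold change -0.08, adjusted p = 0.862). RAB12, which acts in degradation of transferrin receptor, passed the adjusted p (0.0402) at a log2 fold change of -0.19. RAB9A, of the route from late endosomes to the Golgi, had a log2 fold change of -0.01 and RAB32, of lysosome-related organelles and mitochondria, of -0.08.

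The family's summed level was also compared. Per kilobase of the canonical transcript, the level of all 63 members summed to 858 CPM per kb in scrambled and 814 CPM per kb in TAK1 shRNA samples, a difference of -44.2 CPM per kb or -5.16%. RAB7A went from 79.3 ± 1.45 to 53.9 ± 0.532 CPM per kb, and this difference of -25.4 CPM per kb was 57.4% of the change of the sum. In the order of levels RAB7A stood at rank 3 in scrambled and rank 6 in TAK1 shRNA samples. These values depend on the scaling between libraries, and the sum was taken with TMM only. Scaled by library size alone, the log2 fold change of RAB7A was -0.51. The median of the tested RAB genes was then -0.0022, from -0.05. A share of so small a change of the sum is therefore uncertain. The values also depend on the length used. Per kilobase of all annotated exons of a gene, an alternative added after seeing the data, RAB7A went from 24.1 to 16.4 CPM per kb (rank 7 and rank 12), and its difference of -7.71 CPM per kb was 39.0% of a change of the sum of -19.8 CPM per kb. By canonical length, RAB1A at 80.8 to 81.2 and RAB7A at 77.7 to 80.6 CPM per kb were next to each other in the scrambled samples with ranges that did not meet. RAB34 at 73.0 to 78.9 overlapped RAB7A, and RAB1B at 57.5 to 59.7 overlapped RAB10 at 57.2 to 58.6. The 6 highest members, RAB11B, RAB1A, RAB7A, RAB34, RAB1B and RAB10, made up 51.4% of the summed level in scrambled samples by canonical length. By all exons RAB14 stood among the 6 highest in place of RAB7A. The late endosome and lysosome members summed to 128 ± 1.503 CPM per kb in scrambled and 101 ± 1.09 CPM per kb in TAK1 shRNA samples by canonical length, and to 68.6 and 59.0 CPM per kb by all exons.

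**Figure D2:**
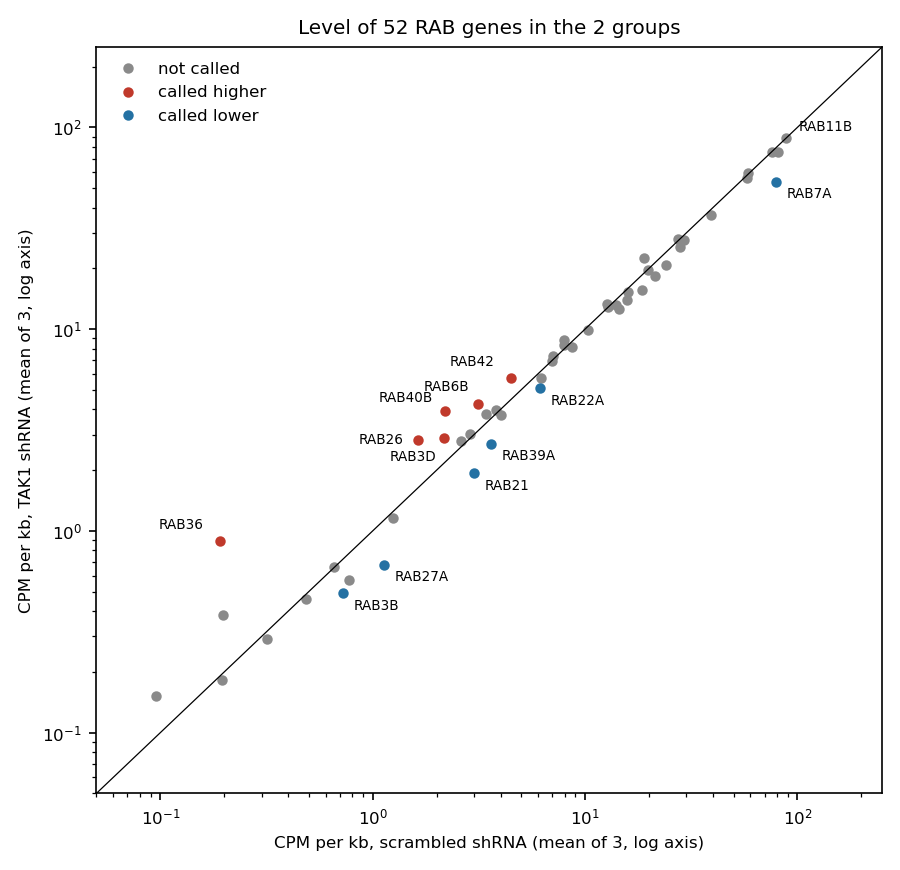
Mean level per kilobase of the 52 tested RAB genes in scrambled (x axis) and TAK1 shRNA samples (y axis), both in CPM per kb on log axes, n = 3 per group, with the line of equal levels. Lengths are those of the canonical transcript; RAB7A is the called gene of the highest level (79.3 against 53.9 CPM per kb), while the other 11 called genes lie under 10 CPM per kb in both groups.

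RAB GTPases of secretory vesicles and exocytosis were split, with 2 of 10 tested members called higher and 2 lower. The shares of all tested genes were 11.8% and 11.3%. RAB26, of secretory granules and of synaptic vesicles bound for autophagy, lies on chromosome 16 (2140803 to 2154165). It read 2.29, 3.05 and 2.89 CPM in scrambled and 4.10, 5.12 and 5.00 CPM in TAK1 shRNA samples. The groups did not overlap, and the log2 fold change was 0.79 (SE 0.172, adjusted p = 0.000821). RAB27A, which docks secretory lysosomes and exosome-bearing endosomes at the plasma membrane, lies on chromosome 15 (55202966 to 55319113). It read 4.54, 3.71 and 3.41 CPM in scrambled and 2.77, 2.32 and 1.94 CPM in TAK1 shRNA samples, a log2 fold change of -0.73 (SE 0.191, adjusted p = 0.00422). Its libraries held 64 to 129 counts each, and its exons overlap those of PIGBOS1 on the same strand and of PIGB on the other. RAB27B, its paralog in exosome secretion, did not follow, with 4.58 ± 0.449 CPM (SD, n = 3) in scrambled and 4.63 ± 0.377 CPM in TAK1 shRNA samples (log2 fold change 0.02, adjusted p = 0.953). Per kilobase RAB27A made up 63.1% ± 3.33 of both in scrambled and 50.5% ± 2.43 in TAK1 shRNA samples, with shares that did not overlap. By all exons RAB27B was the larger of both, and RAB27A held 34.8% ± 3.27 and 24.1% ± 1.78.

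The RAB3 paralogs, GTPases of regulated exocytosis, held a called gene in each direction. RAB3D, of granules in non-neuronal cells, lies on chromosome 19 (11322068 to 11346270). It read 10.3, 8.60 and 8.82 CPM in scrambled and 13.6, 11.6 and 11.4 CPM in TAK1 shRNA samples, a log2 fold change of 0.40 (SE 0.109, adjusted p = 0.00555). Exons of RAB3D overlap those of TMEM205 on the same strand and of CCDC159 on the other. RAB3B lies on chromosome 1 (51907956 to 51990700) and read 10.1, 10.1 and 7.75 CPM in scrambled and 5.95, 5.21 and 7.60 CPM in TAK1 shRNA samples. The groups were separated only narrowly, by scrambled replicate 3 and TAK1 shRNA replicate 3, and the log2 fold change was -0.57 (SE 0.141, adjusted p = 0.00250). RAB3A, of synaptic vesicles, was not called, with 5.11 ± 0.0613 CPM in scrambled and 5.65 ± 0.208 CPM in TAK1 shRNA samples (log2 fold change 0.14, adjusted p = 0.456). Per kilobase RAB3D went from 34.4% ± 1.80 to 40.2% ± 2.45 of the RAB3 sum and RAB3B from 11.5% ± 1.44 to 6.84% ± 1.28.

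Of the remaining exocytic members, RAB8A, which brings Golgi cargo to the plasma membrane and cilia, missed the fold threshold by little (log2 fold change -0.248, adjusted p = 0.00286), and RAB22A at -0.267 was the nearest called gene inside it. RAB8A was called lower without scrambled replicate 1, scrambled replicate 3 or TAK1 shRNA replicate 1. RAB13, of tight junctions, had a log2 fold change of -0.21 (adjusted p = 0.0434) and was called lower without TAK1 shRNA replicate 2. RAB10, which delivers a glucose transporter to the surface in response to insulin, was the most abundant exocytic member at 206 ± 2.57 CPM in scrambled and 200 ± 7.15 CPM in TAK1 shRNA samples, and was not called (log2 fold change -0.04, adjusted p = 0.497).

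**Figure D3:**
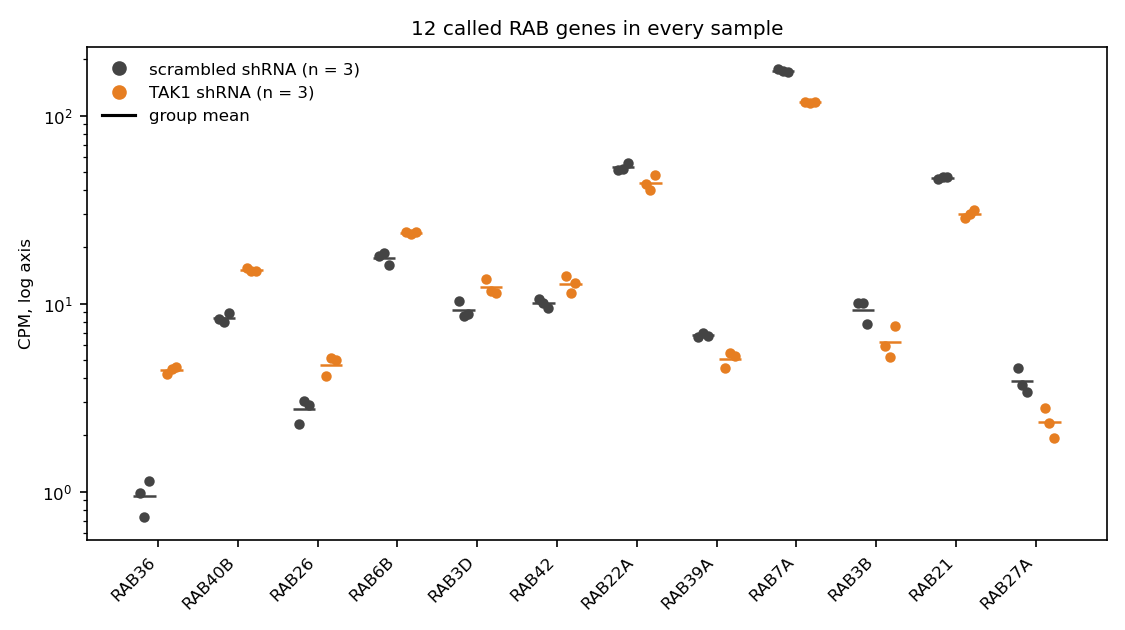
CPM of the 12 called RAB genes (y axis, log scale) in every sample, by gene (x axis), grey for scrambled and orange for TAK1 shRNA, with the group mean as a line, n = 3 per group. No gene's groups overlap, and the gap is widest for RAB36 (at most 1.14 against at least 4.21 CPM) and narrow for RAB3B (7.75 against 7.60 CPM).

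The 3 cilium members, RAB23, RAB28 and RAB34, were not called, where 23.1% of all tested genes were. RAB34, which acts in cilium formation and in macropinocytosis, had 75.9 ± 2.93 CPM per kb in scrambled and 75.2 ± 3.61 CPM per kb in TAK1 shRNA samples. RAB23, a negative regulator of Hedgehog signalling, had a log2 fold change of -0.11 (adjusted p = 0.357).

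The RAB40 subfamily carries a SOCS box and serves as the substrate-recognition part of a cullin ubiquitin ligase, unlike the other RAB proteins. RAB40B, linked to sorting of matrix metalloproteases to invadopodia, lies on chromosome 17 (82654973 to 82698698). It read 8.26, 7.97 and 8.89 CPM in scrambled and 15.5, 14.9 and 14.9 CPM in TAK1 shRNA samples. The groups were well apart, with a log2 fold change of 0.85 (SE 0.098, adjusted p = 2.06e-07), or 1.80-fold. RAB40C, the most abundant of the subfamily, was not called, with 28.1 ± 1.297 CPM in scrambled and 27.0 ± 3.22 CPM in TAK1 shRNA samples (log2 fold change -0.06, adjusted p = 0.647). RAB40A was under 1 CPM in every sample and was not called (log2 fold change 0.96, SE 0.448, adjusted p = 0.104), though it passed without TAK1 shRNA replicate 1 (1.24, adjusted p = 0.0499), and 17.9% of its 75-base stretches are shared with RAB40AL. Per kilobase RAB40B made up 17.2% ± 1.34 of the subfamily in scrambled and 27.7% ± 1.49 in TAK1 shRNA samples, and RAB40C 81.2% ± 0.906 and 69.5% ± 2.72.

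**Figure D4:**
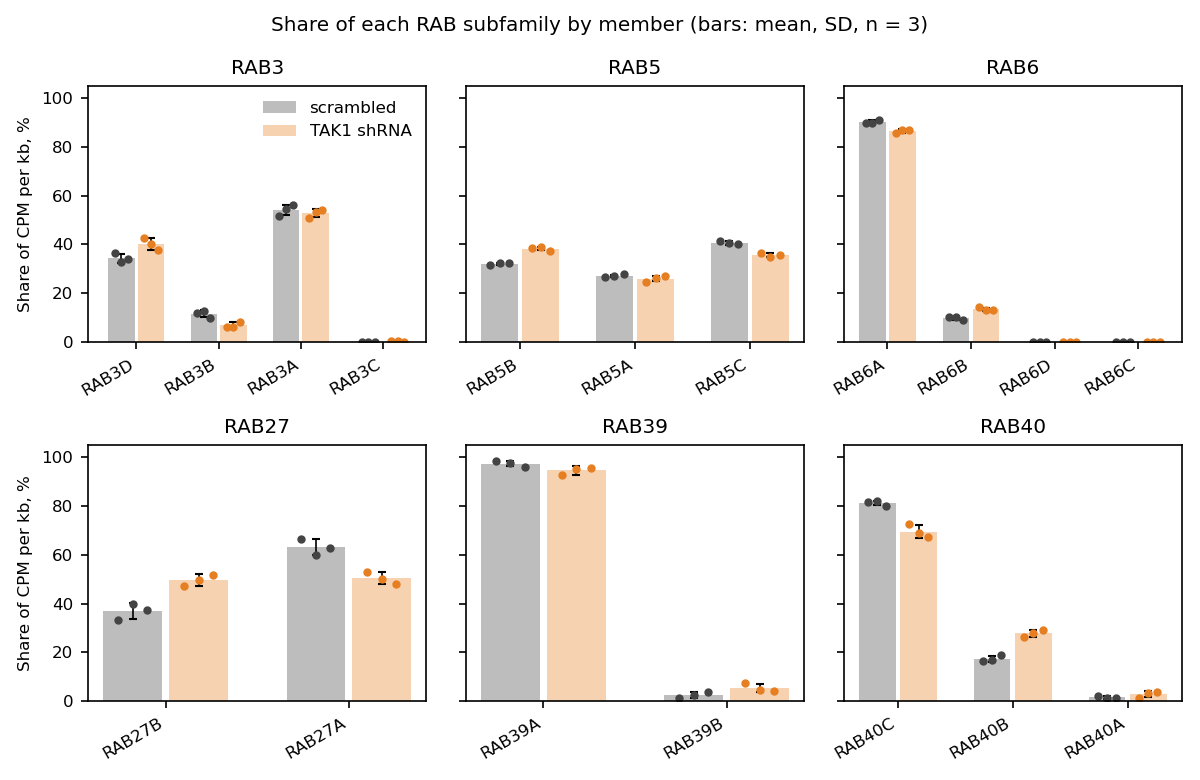
Share of each RAB subfamily's summed CPM per kb that each member holds (y axis, percent), by member (x axis), in scrambled (grey) and TAK1 shRNA samples (orange); bars are means, error bars SD, points the 3 samples. RAB40B and RAB6B (9.64% and 13.4%) hold a larger share in TAK1 shRNA samples and RAB3B and RAB27A a smaller one.

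The 250 bases upstream of the transcription start, as RefSeq gives it on GRCh38.p14, are shown for 4 called genes of different direction and role. RAB3B and RAB3D are paralogs that moved apart, RAB40B rose and RAB7A was the abundant gene that fell. The windows are chr1:51990701-51990950 for RAB3B, chr19:11339658-11339907 for RAB3D and chr17:82698699-82698948 for RAB40B, all on the minus strand, and chr3:128725933-128726182 on the plus strand for RAB7A. Those of RAB3D and RAB7A lie inside the gene bounds given above, which take in longer transcripts. Each reads 5' to 3' on the gene's strand, and capitals mark the searched motifs.
RAB3B: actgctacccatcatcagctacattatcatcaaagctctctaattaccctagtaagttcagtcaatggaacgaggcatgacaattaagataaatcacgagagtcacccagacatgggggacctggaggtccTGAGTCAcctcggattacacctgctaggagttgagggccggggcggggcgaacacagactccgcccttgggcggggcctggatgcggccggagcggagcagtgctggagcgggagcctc
RAB3D: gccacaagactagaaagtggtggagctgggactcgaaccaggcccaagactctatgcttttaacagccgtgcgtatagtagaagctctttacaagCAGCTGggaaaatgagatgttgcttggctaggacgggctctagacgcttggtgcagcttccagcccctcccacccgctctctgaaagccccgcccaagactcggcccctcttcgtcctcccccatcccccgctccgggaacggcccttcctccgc
RAB40B: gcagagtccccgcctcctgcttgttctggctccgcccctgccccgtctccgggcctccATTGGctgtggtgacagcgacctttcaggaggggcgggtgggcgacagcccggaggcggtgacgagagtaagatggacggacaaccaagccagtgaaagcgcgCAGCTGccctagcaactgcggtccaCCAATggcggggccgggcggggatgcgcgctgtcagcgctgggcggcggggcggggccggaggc
RAB7A: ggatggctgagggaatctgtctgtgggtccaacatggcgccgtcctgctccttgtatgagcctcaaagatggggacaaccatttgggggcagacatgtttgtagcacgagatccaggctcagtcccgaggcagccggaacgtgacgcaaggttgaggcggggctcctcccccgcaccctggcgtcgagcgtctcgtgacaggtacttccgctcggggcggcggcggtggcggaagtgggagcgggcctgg

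Motifs were searched on both strands of 35116 promoters, 50 of them of RAB members and 10 of called members. Every called promoter with a searched motif is among those shown. The promoters of RAB21, RAB22A, RAB27A, RAB39A, RAB42 and RAB6B held none, and RAB36 and RAB26 had no promoter entry. The AP-1 motif TGANTCA stands 119 bases before the start in RAB3B. It is in 3 of 50 RAB promoters, 1 of the 10 of called members and 6.57% of all. The E-box CAGCTG, of the kind MYOD1 binds, stands 155 bases before the start in RAB3D and 89 bases before it in RAB40B. It is in 7 of 50 RAB promoters, 2 of the 10 of called members and 14% of all. CCAAT is in 12 of 50 RAB promoters, 1 of the 10 of called members and 32% of all. RAB40B holds it at 192 and 64 bases before the start, the former on the other strand. RAB7A held none of these letters. It also lacked the CRE TGACGTCA (1.65% of all promoters) and the TEAD motif CATTCC (11.9%). Absent too were the partial X-box motif GTTGCC (10.2%) and the NF-kB motif GGANTTTCC (1.45%). The last was in 2 RAB promoters, none of them of a called gene. A match is a run of letters and not a shown binding site.

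The 11 members under the filter had 0 to 18 counts per sample. RAB44, a large member known from immune cells, had 0 counts in all 6 samples, which allows at most the floor of 3 counts in each. RAB19 had 1 count in all. RAB38, the melanosome GTPase related to RAB32, had 1 count over the scrambled and 9 over the TAK1 shRNA samples, and RAB3C had 1 and 12. RAB25, the epithelial recycling GTPase, had 7 and 13, RAB17, also of epithelial cells, 12 and 14, and RAB37 9 and 10. RAB33A had 4 and 5, RAB6D 4 and 5, and RAB6C 6 and 1. RAB4B had 13 and 25, but all of its 75-base stretches are shared with readthrough genes. These numbers are too small to show a difference at this depth. RAB24 shares 56.4% of its stretches with MXD3, RAB43 90.7% with ISY1-RAB43 and others, and RAB13 55.9% with other annotated genes, so these 3 counts are uncertain too, while of the called genes RAB42 shared most, at 2.87%.

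Genes that act on RAB proteins were counted by the same call. Over 4 lists of 155 genes, 144 were tested, and 25 were called higher and 6 lower. These are 17.4% and 4.17%, against 11.8% and 11.3% of all tested genes. With offsets by GC bin 22 were called higher and 8 lower. The proteins that speed up GTP hydrolysis, with a TBC domain or of the RAB3GAP complex, had 11 of 40 tested genes called higher and none lower by edgeR's quasi-likelihood test, and 3 lower with no fold threshold. Their median log2 fold change was 0.11 against 0.02 for all tested genes. The 11 called genes had canonical transcripts of 46.3 to 65.8% GC, and 9 of them were called higher again with offsets by GC bin, without TBC1D10B and TBC1D10C. EVI5L went from 23.5 ± 0.709 to 46.4 ± 2.79 CPM (log2 fold change 0.98, SE 0.0692, adjusted p = 4.99e-11). TBC1D4, the AKT substrate that acts on RAB10 in glucose transporter delivery, and TBC1D17 had smaller values of 0.77 (adjusted p = 1.93e-08) and 0.73 (adjusted p = 2.54e-09). TBC1D10C had the highest fold change of the list, 1.27, at a level under 1 CPM in both group means. Its call was lost with DESeq2, with both other filters on low counts, with offsets by GC bin, and without scrambled replicate 1 or 3 or TAK1 shRNA replicate 2 or 3.

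Exchange factors had 8 of 45 tested genes called higher and 1 lower, against 11.8% and 11.3% of all tested genes. With offsets by GC bin DENND1A and DENND4B were not called higher, and DENND2A was called lower. DENND6B, an exchange factor for RAB14, had a log2 fold change of 0.95 (1.43 ± 0.2498 to 2.77 ± 0.429 CPM, adjusted p = 0.00220) and TRAPPC6A, of the TRAPP complexes that act on RAB1, of 0.68 (adjusted p = 0.000783). RIN1, an exchange factor for RAB5, fell by 0.35 on the log2 scale (adjusted p = 0.00845), and was not called without TAK1 shRNA replicate 2. Effectors had 6 of 51 tested genes called higher and 4 lower, or 11.8% and 7.84%. MYO5B, the myosin motor bound by RAB11 and RAB8, went from 20.1 ± 1.41 to 11.98 ± 0.468 CPM (log2 fold change -0.74, adjusted p = 3.68e-07). SYTL4, a granuphilin that binds RAB27, had -0.65 (adjusted p = 0.00763). MAPK8IP3, a kinesin and dynein adaptor, had 0.47 (adjusted p = 9.44e-06) and RAB11FIP4 0.35 (adjusted p = 5.92e-05). Of the 8 genes for lipid modification and recycling 1 was called, CHM, the escort protein that presents new RAB proteins to geranylgeranyl transferase, at -0.33 (adjusted p = 0.000688), a call that was lost with offsets by GC bin.

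**Figure D5:**
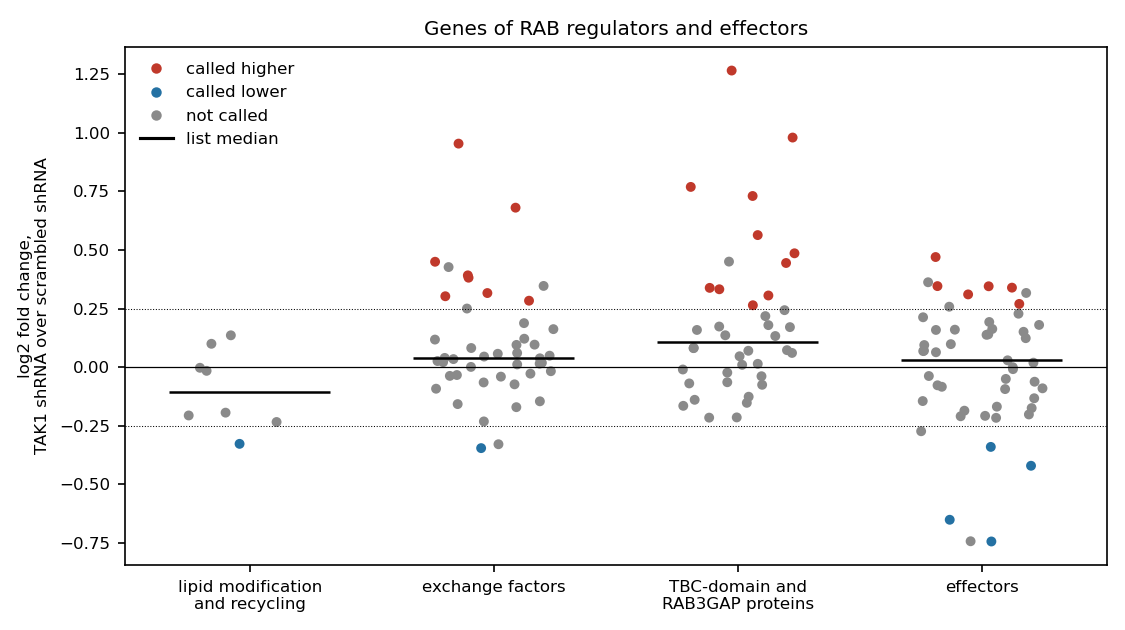
Log2 fold change, TAK1 shRNA over scrambled shRNA (y axis), of the tested genes of 4 lists of RAB regulators and effectors (x axis; 8, 45, 40 and 51 genes), with the list median as a line and the fold threshold of 0.25 dotted. The TBC-domain and RAB3GAP list holds 11 genes called higher (red) and none called lower (blue), the effectors 6 and 4. Of all tested genes 11.8% were called higher and 11.3% lower.

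Other small GTPases were counted for comparison. RAB-like GTPases had 2 of 8 tested genes called higher and none lower, where 11.8% and 11.3% of all tested genes were. These were RABL2B at a log2 fold change of 0.52 (adjusted p = 1.29e-05) and IFT22 at 0.38 (adjusted p = 2.90e-05), both of ciliary traffic. ARF and ARL GTPases had 5 of 27 called lower and none higher, against 11.3% and 11.8% of all tested genes, with ARL15 at -0.82 (adjusted p = 0.0131), and 2 passed the adjusted p upward with no call.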

How the data were processed

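Per the labels and the study's methods, RNA of RD cells was poly(A) enriched, sequenced as paired-end reads, and aligned to GRCh38 with STAR. The authors deposited raw counts per gene. The counting tool, its annotation and its use of strand are not given in the sources used here. The members, their roles, the other lists and the motifs were chosen with earlier results of these data known.

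The deposited counts were filtered with filterByExpr (15935 of 58735 rows kept), scaled by TMM and tested with edgeR 4.0.16 (glmQLFit, glmQLFTest) in R 4.3.3 on 3 scrambled against 3 TAK1 shRNA samples. Calls needed a Benjamini-Hochberg adjusted p under 0.05 and a log2 fold change of at least 0.25. On simulated counts for this comparison (15747 genes), 100 of 100 genes changed by 0.5 and 100 of 100 changed by 1 on the log2 scale were called, with 12 false calls. The changed genes were drawn above a minimum count, with the same spread for every gene and no fold under 0.5. The simulation therefore does not cover the smaller folds or low counts among the calls. Library totals were 28839898 to 34469323. No replicate pair agreed within sampling noise.

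Levels between genes are CPM per kilobase of the canonical GENCODE 44 transcript, from which GC content and 75-base stretches shared with other genes were also taken. Gene coordinates are GENCODE 44 (GRCh38), matched by symbol. Promoters come from a RefSeq table on GRCh38.p14. Named genes were all called members, their paralogs by number, the highest member per length of each role, and the 2 highest and 2 lowest called genes of each other list. RAB genes named beyond these were chosen after their values were seen. Some genes of the other lists are not reported here.

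Alternatives were other normalizations (RLE, upper quartile, library size), DESeq2 1.42.0, limma voom 3.58.1, other filters and fold thresholds, a replicate block, leaving out each sample, and, added after seeing the data, offsets by 20 GC bins and levels per kilobase of all annotated exons.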

Additional observations from a re-analysis of the deposited data

How the results depend on the processing

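The counts of called genes moved by over 1.5 times with the fold threshold alone: at 0.5, 3 RAB genes were higher (RAB36, RAB40B and RAB26), 7 regulators and effectors were higher and 2 lower, and 5 TBC-domain genes were higher. With no fold threshold 11 RAB genes and 18 regulators and effectors were lower. Leaving out 1 sample at a time gave 5 to 7 RAB genes higher and 5 to 7 lower, 22 to 25 regulators and effectors higher and 5 to 9 lower, and 10 TBC-domain genes higher.

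RAB22A, RAB42 and RAB39A each lost the call in 2 of the 6 fits with a sample left out, with the folds given beside them. RAB8A or RAB5B joined the calls under several scalings. Scaling by library size alone moved the median of all genes from 0.02 to 0.07 and that of the tested RAB genes from -0.05 to -0.0022. The split of all calls went to 2376 higher and 1404 lower, from 1879 and 1805. DESeq2 called 1680 higher and 1809 lower.

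Among the named RAB genes, directions turned for uncalled ones: RAB10 (0.0036 by library size, 0.022 with GC offsets), RAB11B (-8.18e-06 with every gene of at least 1 count, -0.11 with GC offsets) and RAB34 (0.0033 by upper quartile, 0.034 by library size). Over the left-out samples RAB11B ran from -0.023 to 0.052, RAB27B from -0.058 to 0.086, RAB34 from -0.044 to 0.024 and RAB7B from -0.24 to 0.26. The cause was not tested.

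Deviations of same-numbered samples correlated at 0.037, 0.0364 and 0.0165, and those of other pairs at -0.0524 to 0.0190. These values are small and cannot show whether same-numbered samples share a batch. Scrambled replicate 3 correlated best with TAK1 shRNA replicate 2 (0.019). With the replicate block 6 RAB genes were called higher and 6 lower, and all genes gave 1942 and 1848.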
